A study of Mus musculus with 3 samples.

Results

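The most gene-dense stretches of the mouse autosomes hold 34254 of the 297993 peaks of 5-methylcytosine (5mC) mapped in cardiomyocytes after pressure overload and after Sham surgery. They were chosen by gene number alone. The genome was cut into fixed 1 Mb windows on chromosomes 1 to 19 of build mm10, and a window was called dense when it held the midpoints of 21 or more protein-coding genes of the RefSeq annotation. A peak belonged to the window that held its own midpoint. Of the 162107 TAC peaks, 17739 (10.9%) lay in dense windows, and of the 135886 Sham peaks 16515 (12.2%). The 242 dense windows held 7742 protein-coding genes, from 21 to 67 per window with a median of 28. Each peak was placed inside an annotated gene, within 1 kb of a gene end, or between genes.

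The study isolated cardiomyocytes from hearts of C57Bl6/J males at 8 weeks of age. The TAC library came from mice with pressure overload of 1 week, a model in which the left ventricle works against a narrowed outflow, and the Sham library from mice without it. An Input library, of DNA without antibody, entered the authors' peak calling and has no list of its own. Each group had 1 library, and the labels name no genotype and do not say how many animals a library pooled, so there was no spread between replicates and no test between TAC and Sham. Intervals given here are 95% intervals for counting error only, and neighbouring peaks are not independent. In DNA from many cells, more methylation per cell and more cells with methylation cannot be told apart. Peak lists carry no RNA levels, so the labelled cell type could not be checked against the expression of its markers.

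Methylation of cytosine, in mammals mostly at CG dinucleotides, is laid down by the DNA methyltransferases and removed through oxidation by the Tet enzymes. Bodies of transcribed genes and much of the DNA between genes are usually methylated, whereas CG-rich promoters usually are not. Antibody capture of methylated DNA (MeDIP) recovers regions that combine methylation with enough CG sites, so a stretch with few CG sites gives little signal even where each is methylated. Gene-dense DNA is of several kinds in the mouse, among them GC-rich neighbourhoods of short, broadly expressed genes, and AT-rich arrays of duplicated genes such as odorant receptors, which are silent in muscle.

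The promoter sequences below show what a covered and an uncovered gene start in a dense window looks like. For each state of coverage they are those of the genes with the widest peaks. Added is Myh14, which has the most peaks of the genes on the sarcomere list with a promoter entry. It encodes a nonmuscle myosin heavy chain. Each runs from 250 bases before to 50 bases after a gene start, 5′ to 3′ on the gene's strand, from RefSeq on GRCm38.p6, the assembly that mm10 names. Capitals mark each CG, a motif that reads the same on both strands and that 95.6% of all autosomal promoter entries hold. Gng8 and Zbtb45 were touched by a TAC peak alone, Tdgf1 and Cadm4 by a Sham peak alone, Ptgir and 4933428G20Rik by peaks of both libraries, and Myh14 by neither.
Gng8 promoter: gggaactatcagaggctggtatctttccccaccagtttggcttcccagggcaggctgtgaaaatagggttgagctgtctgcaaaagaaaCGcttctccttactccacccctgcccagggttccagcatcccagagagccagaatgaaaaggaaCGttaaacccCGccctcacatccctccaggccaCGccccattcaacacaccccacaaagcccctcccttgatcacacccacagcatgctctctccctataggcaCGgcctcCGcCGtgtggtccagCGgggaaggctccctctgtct
Zbtb45 promoter: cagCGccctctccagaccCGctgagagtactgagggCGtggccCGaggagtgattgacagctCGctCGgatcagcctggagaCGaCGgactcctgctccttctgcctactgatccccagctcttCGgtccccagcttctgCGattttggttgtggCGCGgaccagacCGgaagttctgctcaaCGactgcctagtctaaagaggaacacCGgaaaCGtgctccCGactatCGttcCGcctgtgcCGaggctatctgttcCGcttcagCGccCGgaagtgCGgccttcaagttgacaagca
Tdgf1 promoter: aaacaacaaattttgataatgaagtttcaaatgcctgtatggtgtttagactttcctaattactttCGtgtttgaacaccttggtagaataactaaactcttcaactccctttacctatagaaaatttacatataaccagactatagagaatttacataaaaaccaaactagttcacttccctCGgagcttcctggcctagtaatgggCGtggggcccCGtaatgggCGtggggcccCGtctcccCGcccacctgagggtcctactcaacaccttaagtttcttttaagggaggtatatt
Cadm4 promoter: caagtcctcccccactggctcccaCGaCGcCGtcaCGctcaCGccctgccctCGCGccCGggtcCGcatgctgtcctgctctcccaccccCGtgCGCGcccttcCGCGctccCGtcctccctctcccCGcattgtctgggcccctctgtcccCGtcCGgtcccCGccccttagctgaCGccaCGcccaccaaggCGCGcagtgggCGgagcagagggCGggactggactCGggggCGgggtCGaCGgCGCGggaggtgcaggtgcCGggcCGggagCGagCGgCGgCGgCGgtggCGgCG
Ptgir promoter: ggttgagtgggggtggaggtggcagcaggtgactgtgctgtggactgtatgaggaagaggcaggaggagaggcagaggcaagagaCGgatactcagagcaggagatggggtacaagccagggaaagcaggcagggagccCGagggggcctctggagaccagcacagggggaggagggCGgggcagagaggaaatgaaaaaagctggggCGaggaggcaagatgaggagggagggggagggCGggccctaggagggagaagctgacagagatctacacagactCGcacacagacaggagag
4933428G20Rik promoter: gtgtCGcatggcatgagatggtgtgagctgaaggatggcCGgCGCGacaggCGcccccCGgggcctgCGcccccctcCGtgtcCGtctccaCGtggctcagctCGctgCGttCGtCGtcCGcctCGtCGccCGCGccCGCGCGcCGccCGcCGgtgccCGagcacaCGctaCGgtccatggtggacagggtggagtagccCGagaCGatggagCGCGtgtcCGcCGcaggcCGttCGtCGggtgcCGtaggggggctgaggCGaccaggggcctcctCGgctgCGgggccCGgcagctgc
Myh14 promoter: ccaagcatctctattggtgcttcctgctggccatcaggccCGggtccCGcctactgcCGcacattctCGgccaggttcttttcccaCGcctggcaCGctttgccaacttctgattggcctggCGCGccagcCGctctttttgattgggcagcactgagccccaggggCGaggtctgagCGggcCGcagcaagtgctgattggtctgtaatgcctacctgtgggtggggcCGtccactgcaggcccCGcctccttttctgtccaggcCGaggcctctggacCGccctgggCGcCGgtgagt

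The Gng8 promoter lies at chr7:16891536-16891835 on the plus strand and holds 8 CG, of which 5 lay in bases 169 to 300, the stretch under its TAC peak. The Zbtb45 promoter lies at chr7:13009803-13010102 on the minus strand, and its TAC peak covered bases 157 to 300 with 13 of its 24 CG. All 300 bases and all 7 CG of the Tdgf1 promoter, at chr9:110946109-110946408 on the minus strand, lay under a Sham peak. At Cadm4, at chr7:24481773-24482072 on the plus strand, the Sham peak reached only the first 43 bases and 5 of 40 CG. Both libraries covered the whole Ptgir promoter, at chr7:16906240-16906539 on the plus strand with 6 CG, and the whole 4933428G20Rik promoter, at chr11:97500291-97500590 on the minus strand with 42 CG. The Myh14 promoter, at chr7:44670794-44671093 on the minus strand, holds 18 CG. A wide peak at a start was therefore found both where CG sites are sparse and where they are packed.

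Per the file headers, the TAC library had 14658177 tags with 34.7% of them in peaks, and the Sham library 12585289 tags with 29.9% in peaks. TAC thus had 1.16 times the tags and 1.19 times the peaks, and every ratio below has to be read beside that last figure. The deposited lists give no signal per peak. The order of rows in each list was read as a tag number per peak (the inferred tag number), which allowed counts at a nearly equal depth-scaled threshold of 8.87 tags per 10000000 in TAC and 8.74 in Sham, and counts of strong peaks with at least 20 tags per 10000000. At these thresholds the whole lists gave ratios of 1.09 (interval 1.08 to 1.10) and 1.19 (1.18 to 1.21). Of the dense-window peaks, 540 in TAC and 455 in Sham had an inferred tag number below the threshold in the header, so the reading is not exact.

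In dense windows the 2 lists were close in size inside genes and apart outside them. Inside genes there were 11119 TAC peaks and 11315 Sham peaks, a TAC to Sham ratio of 0.983 (interval 0.957 to 1.01). Between genes TAC had 5719 peaks and Sham 4479, a ratio of 1.28 (1.23 to 1.33). Within 1 kb of a gene end there were 901 TAC peaks and 721 Sham peaks, a ratio of 1.25 (1.13 to 1.38). Over all places the ratio was 1.07 (1.05 to 1.10), below the 1.19 of the whole lists. Inside genes the interval lay below the 1.19 of the whole lists and between genes above it, and near gene ends the interval held it. In the 202 dense windows that are not chemosensory receptor windows (described further on), the ratio was 1.19 (1.14 to 1.24) between genes. Near gene ends it was 1.18 (1.06 to 1.31) there. Outside genes these windows were thus close to the whole lists.

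Peaks stood at 78.2 per Mb in TAC and 79.6 per Mb in Sham inside genes, which took 58.8% of the dense territory. Between genes, over 84.6 Mb, they stood at 67.6 per Mb in TAC and 53.0 in Sham. Near gene ends, over 15.1 Mb, they stood at 59.5 per Mb in TAC and 47.6 in Sham. Genes were the densest place in both libraries, and the step down from genes to the space between them was smaller in TAC. Of all dense-window peaks, 62.7% in TAC and 68.5% in Sham lay inside genes.

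The same split was made in the less dense windows. With no gene in the window the inside-gene ratio was 1.54 (1.43 to 1.65), these being genes not annotated as protein-coding or reaching in from a neighbour window. With 1 to 10 genes it was 1.13 (1.12 to 1.14), and with 11 to 20 genes 0.989 (0.970 to 1.01). Between genes the ratio was 1.80 (1.74 to 1.86) with no gene, 1.31 (1.30 to 1.33) with 1 to 10 genes and 1.15 (1.12 to 1.18) with 11 to 20 genes. Inside genes the ratio therefore declined up to 11 to 20 genes and stood about level in dense windows, with intervals that overlap. Between genes it was higher again: 1.28 in dense windows was above the 1.15 of the next class, with intervals that do not meet. Without the windows of chemosensory receptor genes described further on, it was 1.19 (1.14 to 1.24), and the intervals do meet.

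**Figure D1:**
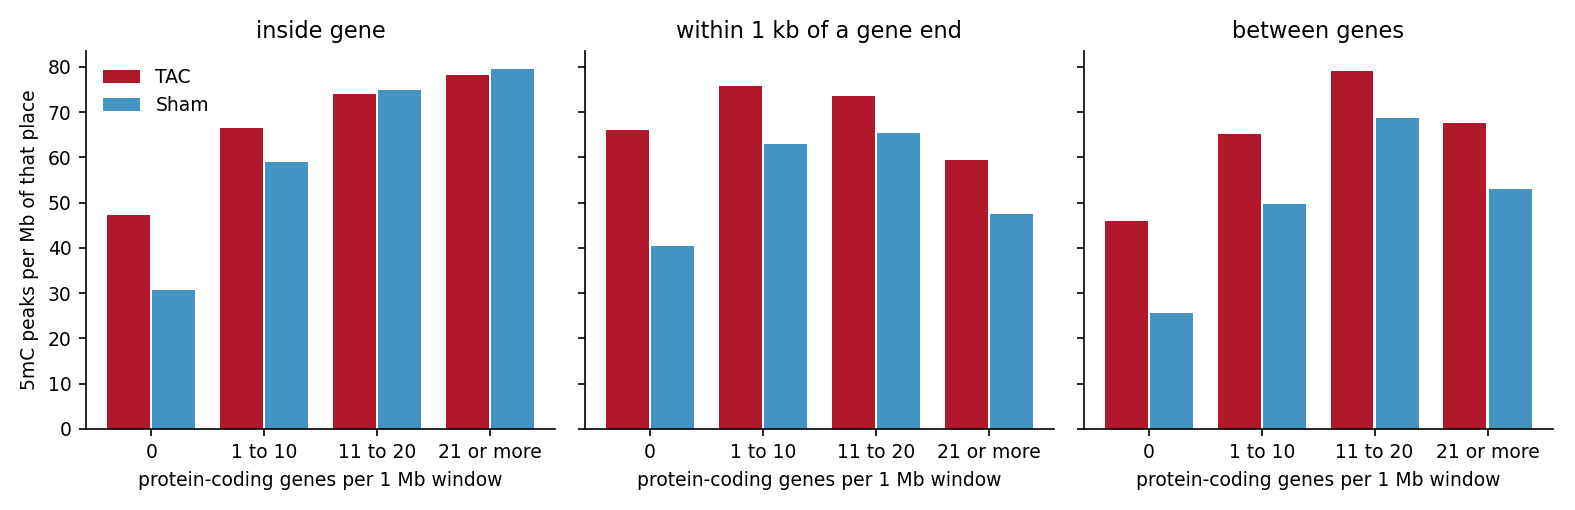
5mC peaks per Mb (vertical axis) by number of protein-coding genes in the 1 Mb window (horizontal axis), in panels for each place, with TAC bars left of Sham bars and 1 library each. In dense windows the bars are 78.2 for TAC and 79.6 for Sham inside genes, and 67.6 for TAC and 53.0 for Sham between genes.

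How far TAC exceeded Sham depended on the tag threshold, and the order of the places was the same at all 3. At the nearly equal threshold there were 9926 TAC peaks and 11039 Sham peaks inside genes, a ratio of 0.899 (0.875 to 0.924), and 5086 TAC peaks and 4322 Sham peaks between genes, a ratio of 1.18 (1.13 to 1.23). Among strong peaks the counts were 3894 in TAC and 4211 in Sham inside genes (0.925, 0.885 to 0.966) and 1865 in TAC and 1384 in Sham between genes (1.35, 1.26 to 1.45). At the nearly equal threshold the dense windows as a whole held 15806 TAC peaks and 16060 Sham peaks, a ratio of 0.984 (0.963 to 1.01), so the small TAC excess over all places was lost there. Set against the inside-gene ratio, the between-gene ratio was 1.30 times as high over all peaks (Woolf interval 1.24 to 1.36), 1.31 times (1.25 to 1.37) at the nearly equal threshold and 1.46 times (1.34 to 1.58) among strong peaks. In windows with 11 to 20 genes the same quotient was 1.16 (1.13 to 1.20) over all peaks, 1.17 (1.13 to 1.21) at the nearly equal threshold and 1.22 (1.16 to 1.29) among strong peaks.

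**Figure D2:**
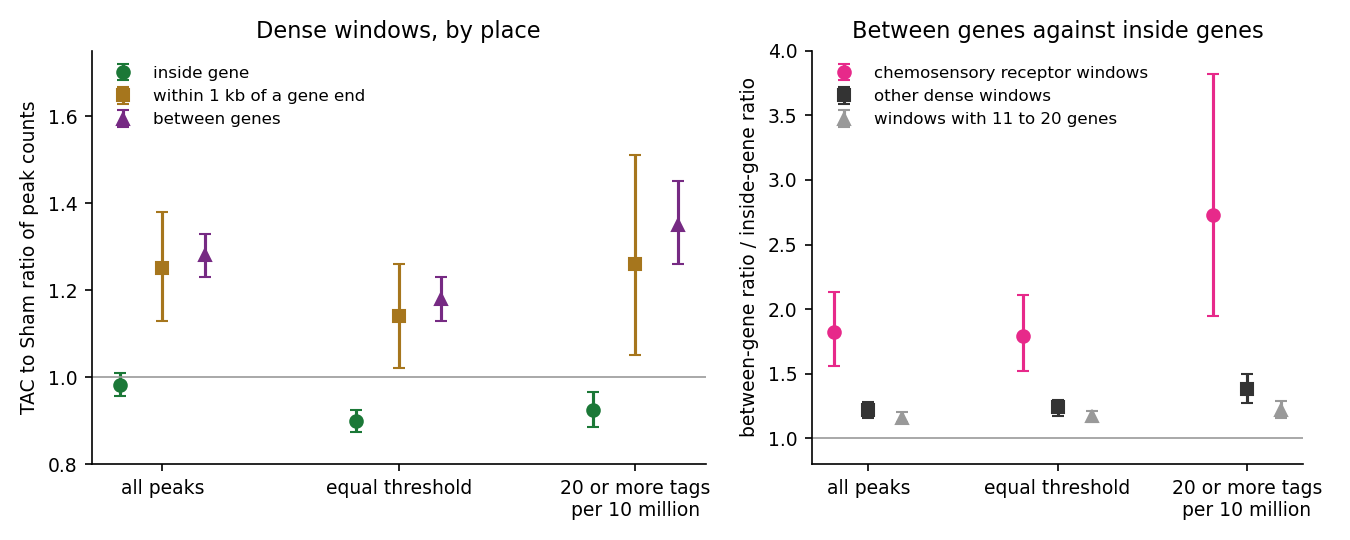
Left, TAC to Sham ratio of peak counts in dense windows by place at 3 tag thresholds. Right, the between-gene ratio divided by the inside-gene ratio for chemosensory receptor windows, other dense windows and windows with 11 to 20 genes. Points are ratios from 1 library per group and bars are 95% intervals for counting error. Inside-gene points lie below 1 and between-gene points above it at each threshold.

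Between genes, distance from the nearest gene made little difference over the range where most peaks lay. From 1 to 5 kb there were 2629 TAC peaks and 1987 Sham peaks, a ratio of 1.32 (1.25 to 1.40). From 5 to 10 kb there were 1553 TAC and 1197 Sham peaks (1.30, 1.20 to 1.40), and from 10 to 25 kb 1231 TAC and 1040 Sham peaks (1.18, 1.09 to 1.29). Beyond that dense windows hold little DNA: from 25 to 50 kb there were 245 TAC and 213 Sham peaks (1.15, 0.953 to 1.39) and farther out 61 TAC and 42 Sham peaks (1.45, 0.965 to 2.21). In the last 2 ranges the interval spans 1.

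Inside protein-coding genes the ratio differed little by length of the host gene, and the intervals of the length classes overlap. In protein-coding genes under 10 kb there were 1117 TAC peaks and 1234 Sham peaks, a ratio of 0.905 (0.834 to 0.982), the lowest of the length classes. In genes of 10 to 50 kb, the length class with the most peaks, there were 5092 TAC and 5298 Sham peaks (0.961, 0.925 to 0.999). Genes of 50 to 100 kb gave 1.03 (0.966 to 1.09), genes of 100 to 200 kb 0.988 (0.907 to 1.08) and longer genes 1.00 (0.898 to 1.11), with intervals that span 1. Genes not annotated as protein-coding, where they overlap no protein-coding gene, held 1047 TAC and 963 Sham peaks (1.09, 0.995 to 1.19). At the nearly equal threshold the shortest genes gave 0.824 (0.757 to 0.897) and the genes not annotated as protein-coding 1.01 (0.923 to 1.11). In windows with 11 to 20 genes, over all peaks, these classes gave 0.937 (0.827 to 1.06) and 1.05 (0.989 to 1.10).

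Most dense-window peaks were found in both libraries. Overlap by at least 1 bp with a peak of the other library held for 60.4% of TAC peaks and 64.6% of Sham peaks. Inside genes the shares were alike, 64.3% in TAC and 62.9% in Sham. Between genes they were 53.9% in TAC and 68.8% in Sham, and near gene ends 54.4% in TAC and 65.9% in Sham. Between genes 2636 TAC peaks and 1399 Sham peaks had no partner, a ratio of 1.88. Inside genes 3969 TAC peaks and 4202 Sham peaks had none, a ratio of 0.945. In windows with 11 to 20 genes these ratios were 1.48 between genes and 0.960 inside genes. The shares with a partner between genes were 59.9% in TAC and 68.7% in Sham there. With 1 to 10 genes they were 52.1% in TAC and 68.5% in Sham, and with no gene 37.5% in TAC and 67.3% in Sham. The lower TAC share between genes was thus not particular to dense windows. A longer list gives its partner more chances to overlap, so the Sham shares are favoured by the longer TAC list.

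Peaks that paired off singly could be compared for inferred tags scaled by library depth. The median TAC to Sham ratio of tags was 0.957 over 6897 pairs inside genes (quartiles 0.705 and 1.29), 1.11 over 474 pairs near gene ends (0.796 and 1.46) and 1.10 over 3026 pairs between genes (0.859 and 1.52). In windows with 11 to 20 genes the medians were 0.992, 1.02 and 1.07 in the same order. Shared peaks outside genes thus had higher medians than those inside, with quartile ranges that overlap widely.

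Widths were close. TAC peaks averaged 681 bp inside genes and 639 bp between genes, and Sham peaks 719 bp inside genes and 645 bp between genes. The median was 501 bp, the narrowest width of a dense-window peak in either list, in both libraries and all places. Peaks over 1 kb made up 10.7% of TAC peaks and 13.6% of Sham peaks inside genes, and 7.94% of TAC peaks and 8.35% of Sham peaks between genes. The widest dense-window peak measured 10987 bp in TAC and 11942 bp in Sham.

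The difference between the places was spread over the chromosomes. The between-gene ratio was above 1 on 19 of 19 autosomes, from 1.10 (0.889 to 1.35) on chromosome 16 to 1.48 (1.30 to 1.70) on chromosome 2. Its interval spanned 1 on chromosomes 1, 4, 5, 8, 12, 14, 16, 18 and 19. On chromosomes 4, 5, 8 and 16 the ratio lay below the 1.19 of the whole lists, at 1.12, 1.15, 1.13 and 1.10. The inside-gene ratio was below 1 on 12 of 19 and ranged from 0.886 (0.795 to 0.987) on chromosome 15 to 1.32 (0.991 to 1.76) on chromosome 13. The between-gene ratio exceeded the inside-gene ratio on 18 of 19 chromosomes. The exception was chromosome 16, with 281 TAC and 225 Sham peaks inside genes (1.25) against 193 TAC and 176 Sham peaks between genes (1.10). Chromosome 7, with 35 dense windows the richest, had 1610 TAC and 1605 Sham peaks inside genes (1.00) and 734 TAC and 506 Sham peaks between genes (1.45).

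Single windows held from 0 to 143 TAC peaks, with a median of 74.0, and from 0 to 160 Sham peaks, with a median of 72.5. TAC had more peaks in 155 windows and Sham in 80, and 7 were equal. Across the 242 windows the peak number followed gene number hardly at all (Spearman's rho of 0.0750 in TAC and 0.0574 in Sham) and the share of the window inside genes more (0.494 in TAC and 0.565 in Sham). Windows share libraries and base composition, so these are descriptions. Among windows already chosen for 21 or more genes, a higher gene number thus hardly went with more peaks. Across the classes, windows with no gene held 46.3 peaks per Mb in TAC and 26.4 in Sham. Those with 1 to 10 genes held 66.1 in TAC and 54.5 in Sham, and those with 11 to 20 genes 75.8 and 72.4. Dense windows held 73.3 in TAC and 68.3 in Sham.

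Of the 239 dense windows with 20 or more peaks, 36 (15.1%) had a TAC to Sham ratio of at least 1.5, where 32.5% of all autosomal windows of that peak number did. None of the 239 had a ratio of at most 1/1.5, and the background share was 0. The ratio ran from 0.747 to 3.50 with a median of 1.08. The interval of the TAC share lay wholly above 50% in 28 windows, 18 of them chemosensory receptor windows (described further on), and wholly below it in 0. A share of 50% means equal counts, and the whole lists, at a ratio of 1.19, have a higher share. Measured from the whole lists, windows with more Sham peaks thus lie farther off than these counts show. No share over all autosomal windows stands beside the 28.

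**Figure D3:**
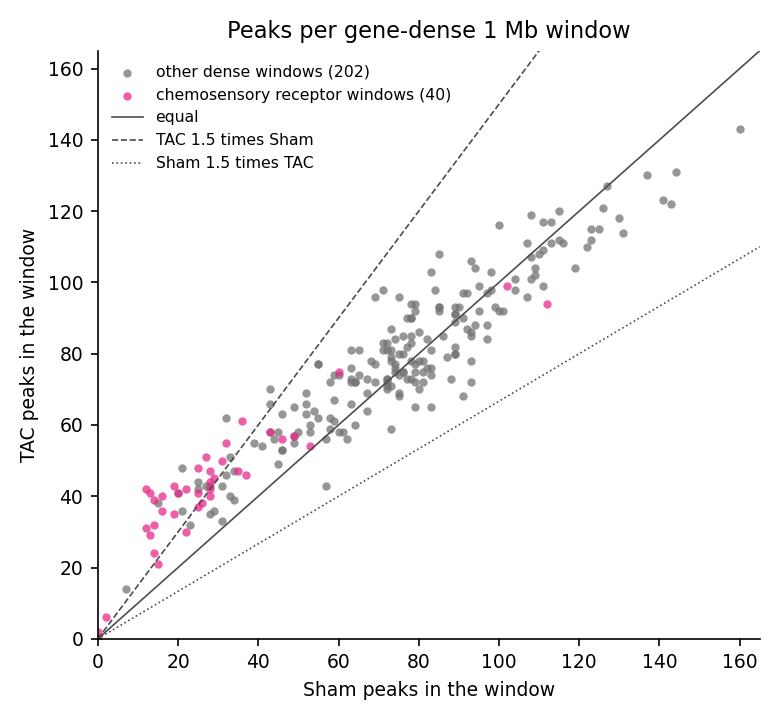
TAC peaks (vertical axis) against Sham peaks (horizontal axis) in each of the 242 dense windows, with 1 library per group. Most chemosensory receptor windows lie in the lower left above the line of equal counts, and the windows with the most peaks lie mostly below it, at up to 143 TAC and 160 Sham peaks.

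The windows with the most peaks were neighbourhoods of diverse genes, and in 7 of the 8 Sham had more peaks. The window at 78 to 79 Mb of chromosome 15, from the calcium channel subunit gene Cacng2 to Triobp, held 143 TAC and 160 Sham peaks. The window at 45 to 46 Mb of chromosome 7, with 66 genes among them Gys1, which makes glycogen synthase of muscle, and Bax, a mediator of cell death, held 131 TAC and 144 Sham peaks. The window at 112 to 113 Mb of chromosome 12, around the kinase gene Akt1, held 130 TAC and 137 Sham peaks. The window at 120 to 121 Mb of chromosome 5, with the Oas genes of the antiviral response, held 127 peaks in each library. Those at 114 to 115 Mb of chromosome 5 (122 TAC and 143 Sham), 141 to 142 Mb of chromosome 4 (123 TAC and 141 Sham), 79 to 80 Mb of chromosome 15 (118 TAC and 130 Sham) and 69 to 70 Mb of chromosome 11, with Trp53 and Polr2a (121 TAC and 126 Sham), complete the set. For each of the 8 the interval of the TAC share held 50%, the share of equal counts, which is below the share of the whole lists.

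Ranked by the lower bound of the TAC share, the top 6 windows were gene arrays. Odorant receptor (Olfr) clusters filled 4 of them: 42 TAC and 12 Sham peaks at 89 to 90 Mb of chromosome 2, 39 TAC and 14 Sham at 86 to 87 Mb of the same chromosome, 41 TAC and 13 Sham at 38 to 39 Mb of chromosome 9, and 40 TAC and 16 Sham at 39 to 40 Mb of chromosome 9. The prolactin family cluster at 27 to 28 Mb of chromosome 13, whose genes are mainly active in placenta and pituitary, held 38 TAC and 15 Sham peaks. The window at 88 to 89 Mb of chromosome 16, with keratin-associated protein genes of hair and the glutamate receptor gene Grik1, held 48 TAC and 21 Sham peaks.

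The 6 windows with the lowest upper bound held genes of mixed function. The window at 75 to 76 Mb of chromosome 11, from Smg6 to Rph3al, held 68 TAC and 91 Sham peaks, the lowest ratio at 0.747, and its TAC share of 42.8% had an interval of 35.0% to 50.8%. The window at 94 to 95 Mb of chromosome 8, with the metallothionein genes Mt1 to Mt4, held 72 TAC and 93 Sham peaks. The window at 57 to 58 Mb of chromosome 9, with the xenobiotic enzymes Cyp1a1 and Cyp1a2, held 65 TAC and 83 Sham peaks. The window at 118 to 119 Mb of chromosome 4 held 94 TAC and 112 Sham peaks. It counts as a chemosensory window by its 13 Olfr genes but also holds Ptprf and the endothelial receptor gene Tie1.

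Windows were grouped by gene family when 10 or more of their genes belonged to it. Chemosensory receptor genes, which encode odorant, vomeronasal and taste receptors, filled 40 windows with 1026 of their 1356 genes. These windows held 1719 TAC peaks and 1148 Sham peaks, a ratio of 1.5 (1.39 to 1.61). The other 202 dense windows held 16020 TAC and 15367 Sham peaks, a ratio of 1.04 (1.02 to 1.07). TAC had more peaks in 37 of the 40 chemosensory windows and in 118 of the other 202. Of those with 20 or more peaks, 23 of 37 chemosensory windows reached a ratio of 1.5 and 13 of 202 others.

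In the chemosensory windows the difference sat between the genes. Inside genes there were 613 TAC and 575 Sham peaks (1.07, 0.950 to 1.20), near gene ends 135 TAC and 73 Sham peaks (1.85, 1.38 to 2.49) and between genes 971 TAC and 500 Sham peaks (1.94, 1.74 to 2.17). In the other dense windows the counts were 10506 TAC and 10740 Sham inside genes (0.978, 0.952 to 1.00), 766 TAC and 648 Sham near gene ends (1.18, 1.06 to 1.31) and 4748 TAC and 3979 Sham between genes (1.19, 1.14 to 1.24). The order of the places was thus the same with the chemosensory windows set aside. The between-gene ratio was 1.82 times the inside-gene ratio in chemosensory windows (1.56 to 2.13) and 1.22 times in the others (1.16 to 1.28).

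Chemosensory windows were poor in peaks, at 43.0 per Mb in TAC and 28.7 per Mb in Sham, and 27.7% of their territory lay inside genes. Overlap with the other library held for 42.4% of their TAC peaks and 63.2% of their Sham peaks. At the nearly equal threshold they held 1487 TAC and 1103 Sham peaks (1.35, 1.25 to 1.46) and the other dense windows 14319 TAC and 14957 Sham peaks (0.957, 0.936 to 0.980). The direction in the other windows therefore turned with the threshold and that in the chemosensory windows did not. Vomeronasal receptor windows at 20 to 23 Mb of chromosome 7 were almost empty, with 6 TAC and 2 Sham peaks in the first, 0 in both in the second and 2 TAC and 0 Sham in the third. Their genes are near-identical copies, and whether reads there were lost in mapping was not tested.

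The receptor genes themselves carried few peaks. Over all 7742 dense-window genes, 3455 (44.6%) had no peak in either library. Of the 1141 chemosensory receptor genes in dense windows, 1054 (92.4%) had no peak in either library, and the whole set held 68 TAC and 58 Sham peaks, or 2.59 per 100 kb in TAC and 2.21 in Sham. Genes of none of the 17 families searched stood at 8.04 per 100 kb in TAC and 8.29 in Sham, with 9765 TAC and 10070 Sham peaks (0.970, 0.943 to 0.997). Histone genes, short genes used by dividing cells, had no peak in 66 of 68. Keratin genes had 45 peaks in each library, and the zinc finger genes 254 TAC and 245 Sham peaks (1.04, 0.866 to 1.24). Kallikrein protease genes held 44 TAC and 27 Sham peaks over 273 kb (1.63, 0.987 to 2.74), and the 5159 kb counted for protocadherin gene models, which overlap and share peaks, stood at 8.06 per 100 kb in TAC and 6.20 in Sham.

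Other gene arrays were too few to separate from the rest. The keratin windows, 5 in number, held 421 TAC and 365 Sham peaks (1.15, 1.00 to 1.33), the 3 histone windows 156 TAC and 152 Sham peaks (1.03, 0.816 to 1.29) and the 3 zinc finger windows 225 TAC and 218 Sham peaks (1.03, 0.853 to 1.25). The single C-type lectin window, with receptor genes of natural killer cells, held 44 TAC and 25 Sham peaks (1.76, 1.05 to 3.0), and the single Ms4a window 43 TAC and 27 Sham peaks (1.59, 0.962 to 2.68). The 2 windows of the major histocompatibility complex (MHC) held 135 TAC and 107 Sham peaks (1.26, 0.972 to 1.64).

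Base composition moved with these groups. The mean GC content of a window's promoters had a median of 39.4% over the chemosensory windows and 58.9% over the others. Of the other windows with promoter entries, the 66 with the lowest promoter GC (40.7% to 57.4%) held 4527 TAC and 3864 Sham peaks (1.17, 1.12 to 1.22), the 65 in the middle 5353 TAC and 5271 Sham peaks (1.02, 0.977 to 1.06) and the 66 with the highest (60.0% to 66.7%) 5751 TAC and 5830 Sham peaks (0.986, 0.951 to 1.02). Within these groups the between-gene ratios were 1.32, 1.14 and 1.12, each above the inside-gene ratios of 1.07, 0.966 and 0.938 in the same order. Antibody capture and library amplification can depend on base composition, and their part in the result was not tested.

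Gene starts of dense windows were low in peaks. In bins of 250 bp, the share of 7492 gene starts with a peak over the bin was lowest just before the start, at 2.12% in TAC and 2.04% in Sham. It was 4.55% in TAC and 4.31% in Sham at the upstream edge 5 kb away, and 4.89% in TAC and 4.90% in Sham at the downstream edge. At starts with 15 or more CG in the promoter the minimum was 1.28% in both libraries, and at starts with fewer it was 2.79% in TAC and 2.64% in Sham. The dip had the same place and almost the same depth in both libraries. It was not particular to dense windows: in the other autosomal windows the lowest share, in the same bin, was 1.86% in TAC and 1.88% in Sham. The upstream edge there stood at 4.96% in TAC and 4.21% in Sham.

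A peak touched the 300-base promoter in 276 of 7501 entries in TAC (3.68%, 3.26% to 4.13%) and in 260 in Sham (3.47%, 3.06% to 3.91%). Coverage was highest in promoters with 5 to 14 CG, at 6.80% in TAC and 7.13% in Sham. With up to 4 CG it was 3.32% in TAC and 2.70% in Sham, with 15 to 25 CG 2.70% in TAC and 2.38% in Sham, and with 26 or more 1.63% in TAC and 1.56% in Sham. In each class the intervals of the libraries overlapped. In the other autosomal windows the class with 5 to 14 CG stood at 5.38% in TAC and 5.57% in Sham.

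**Figure D4:**
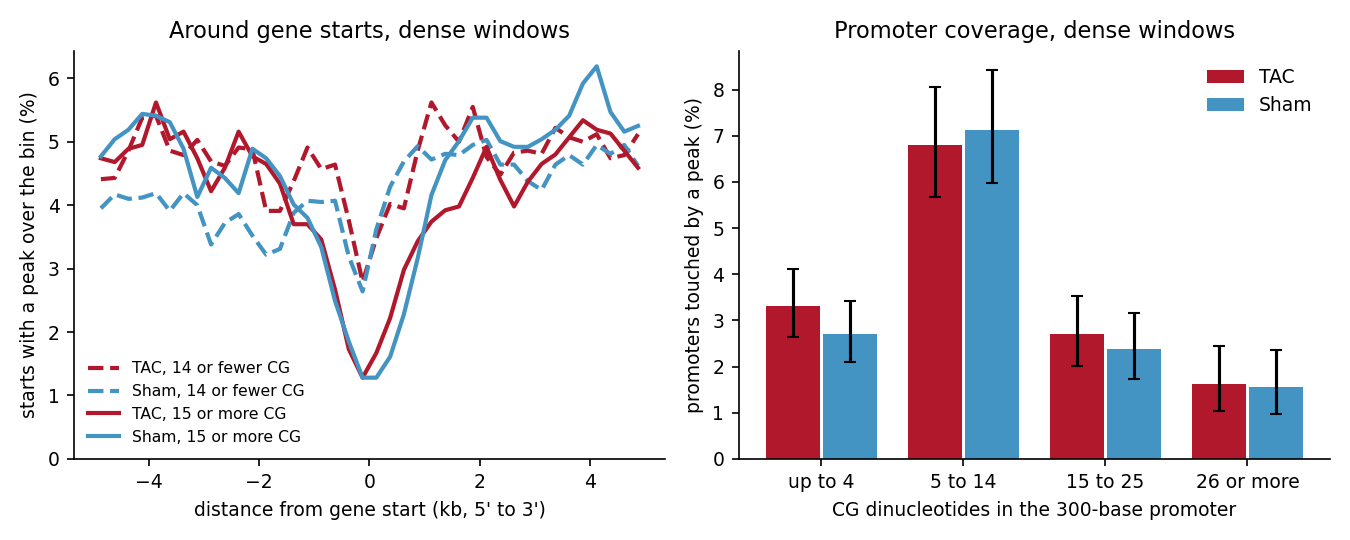
Left, share of gene starts in dense windows with a peak over each 250 bp bin (vertical axis, percent) by distance from the start (horizontal axis, kb), for promoters with 14 or fewer and 15 or more CG. Right, share of promoters touched by a peak by number of CG in the promoter, TAC bars left of Sham bars, with exact 95% intervals. Both libraries dip at the start, to 2.79% in TAC and 2.64% in Sham for the promoters with fewer CG, and coverage is highest at 5 to 14 CG.

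Of the 6317 dense-window genes with a promoter entry, 147 were covered in both libraries, 106 (1.68%) in TAC alone and 98 (1.55%) in Sham alone. Over all autosomal genes the shares were 1.77% in TAC alone and 1.54% in Sham alone, so the dense-window genes were covered in 1 library about as often as genes anywhere. Among the genes covered in TAC alone, the peak at the promoter still overlapped a Sham peak farther along in 22 of 106. Among those covered in Sham alone it overlapped a TAC peak in 26 of 98. In those genes the libraries differed in where a peak ended.

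The 8 widest promoter peaks in TAC alone measured 1280 to 2827 bp. Gng8, a G protein gamma subunit gene, had a TAC peak of 2827 bp with 61.4 inferred tags per 10000000, and the nearest Sham peak lay 709 bp away. Zbtb45, a zinc finger factor gene, had a TAC peak of 2488 bp with a Sham peak 1574 bp away. At Dao, for D-amino acid oxidase, Pear1, for a receptor of platelets and endothelium, and Ildr1, for a protein of tricellular junctions, the TAC peaks of 1942, 1835 and 1478 bp overlapped no Sham peak, and the nearest lay 6752, 6014 and 5715 bp away. Zfp467, Rpl37rt and Agpat1 had Sham peaks within 129, 684 and 53 bp. Rpl37rt is a retrotransposed copy of a ribosomal protein gene, so its reads may be shared with other copies.

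The 8 widest in Sham alone measured 1558 to 2064 bp. Tdgf1, for the embryonic Nodal co-receptor Cripto, had a Sham peak of 2064 bp with 48.5 inferred tags per 10000000, and the nearest TAC peak lay 2822 bp away. Henmt1, whose product methylates small RNAs of the germline, and Ccin, for a sperm head protein, had Sham peaks of 1716 and 1663 bp, with the nearest TAC peak 14721 and 6269 bp away. Cadm4, for an adhesion protein, Ttll6, for a tubulin-modifying enzyme, Cacng6, for a calcium channel subunit, Tnxb, for tenascin X, and the odorant receptor gene Olfr543 had a TAC peak within 409, 235, 464, 83 and 15 bp. At 5 of the 8 genes in each set the promoter peak overlapped a peak of the other library farther along, Gng8 and Zbtb45 included.

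The promoters with the widest peaks in both libraries were those of Ptgir, the prostacyclin receptor gene, 4933428G20Rik, Nyap1, Ttbk1, Grin2d, Gm31160, Syce3 and Bpifb4. At Ptgir the TAC peak measured 2767 bp with 188 inferred tags per 10000000 and the Sham peak 2840 bp with 220. At Grin2d, an NMDA receptor subunit gene, the TAC peak measured 1076 bp with 110 tags and the Sham peak 2411 bp with 109. At Syce3, of the meiotic synaptonemal complex, the TAC peak measured 1706 bp with 73.7 tags and the Sham peak 1553 bp with 64.4.

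Of the 7742 genes, 4287 had at least 1 peak with its midpoint in the gene, 3124 of them in both libraries. TAC had more peaks in 1402 genes and Sham in 1499, and 575 genes had peaks in TAC alone against 588 in Sham alone. Genes were named for the most one-sided shares, which is a choice by value and carries no test. For Grik1 alone among the 20 named did the interval of the TAC share leave out 50%, the share of equal counts. The whole lists have a TAC share above 50%, so genes with more Sham peaks lie farther from the whole lists than from 50%.

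Of genes ranked by the lower bound of their TAC share, the first was Grik1, a kainate-type glutamate receptor gene on chromosome 16, with 20 TAC and 6 Sham peaks and a TAC share of 76.9% (56.4% to 91.0%). Ano7, of the anoctamin family, had 5 TAC and 0 Sham peaks. Usp29, an imprinted gene next to Peg3 on chromosome 7, had 34 TAC and 22 Sham peaks. The insulin receptor gene Insr had 16 TAC and 8 Sham peaks, and Dock3, for an activator of the GTPase Rac, had 17 TAC and 8 Sham peaks. Specc1l, for a cytoskeletal linker, had 11 TAC and 4 Sham peaks, Cfap74, of motile cilia, 13 TAC and 6 Sham peaks, and the chloride channel gene Ano2 31 TAC and 23 Sham peaks. The models Gm38666 (50 TAC and 44 Sham peaks) and Gm38667 (49 TAC and 43 Sham peaks) span the same stretch of the protocadherin cluster of chromosome 18 and count nearly the same peaks.

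Ranked by the upper bound, the lowest gene was Cbx7, a Polycomb subunit gene, with 3 TAC and 11 Sham peaks and a TAC share of 21.4% (4.66% to 50.8%). Cpne2, for a calcium-dependent membrane-binding protein, had 1 TAC and 7 Sham peaks. Stim1, for the calcium sensor of the endoplasmic reticulum that opens store-operated entry, had 44 TAC and 55 Sham peaks. Cacna1a, a neuronal calcium channel gene, had 46 TAC and 60 Sham peaks, and Nrg2, for a ligand of ErbB receptors, had 19 TAC and 31 Sham peaks. Tiam1, for another Rac activator, had 47 TAC and 58 Sham peaks, Adamts2, for a procollagen-processing protease, 29 TAC and 40 Sham peaks, and Lrp1, for an endocytic receptor, 15 TAC and 24 Sham peaks. Otof, of the hair cell synapse, had 10 TAC and 19 Sham peaks and Unc13b, which primes vesicles for release, 27 TAC and 38 Sham peaks. Cacna1a, Tiam1 and Stim1 also held the most peaks of all dense-window genes, which was seen after their values.

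**Figure D5:**
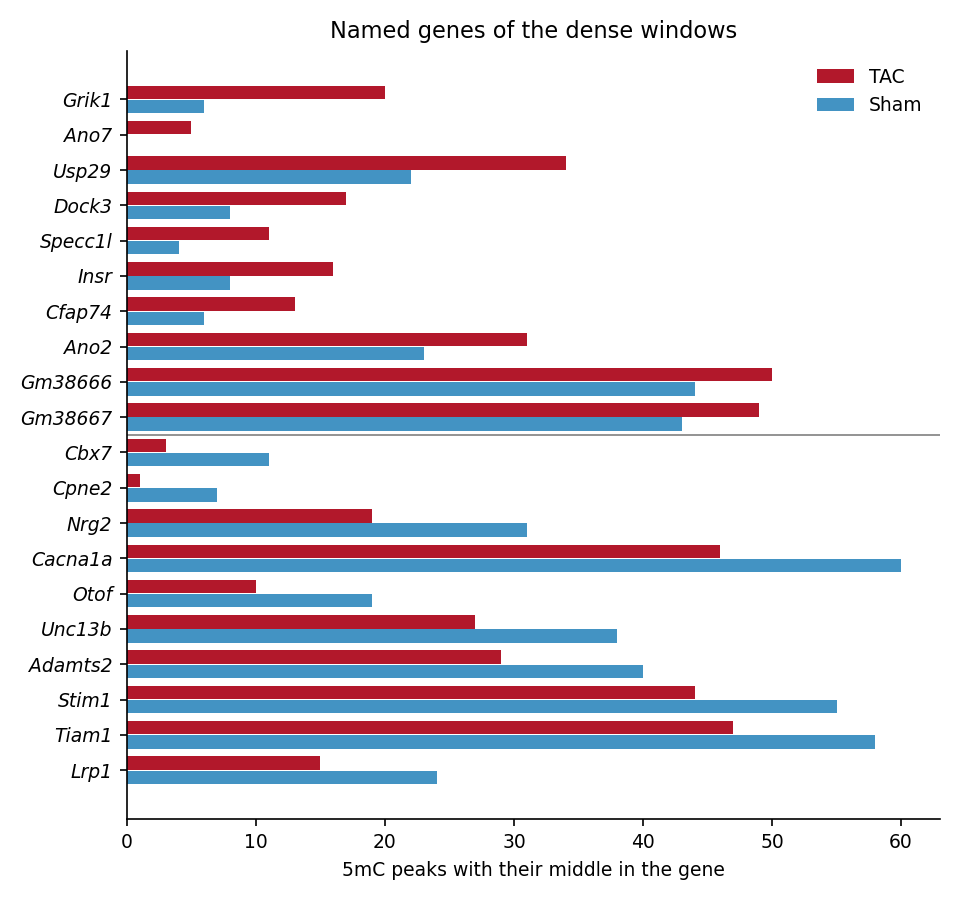
Number of 5mC peaks with their midpoint in the gene (horizontal axis) for the 20 named genes, TAC bars above Sham bars, 1 library each. The upper 10 genes lead by the lower bound of their TAC share, from Grik1 with 20 TAC and 6 Sham peaks. The lower 10 come last by its upper bound, from Cbx7 with 3 TAC and 11 Sham peaks.

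Many genes of the contractile apparatus lie in dense windows. Of 47 genes on the sarcomere list, 21 did, and they held 68 TAC and 54 Sham peaks (1.26, 0.868 to 1.83), those of Myh14 included. TAC had more peaks in 10, Sham in 1, 4 had equal numbers and 6 had none. Over all 7742 dense-window genes, TAC had more in 18.1%, Sham in 19.4%, and 44.6% had none. Myh14, on the list although it encodes a nonmuscle myosin heavy chain, had 10 TAC and 13 Sham peaks and was the gene with more in Sham. The adjacent cardiac myosin genes Myh6 and Myh7 had 5 TAC and 3 Sham peaks and 5 TAC and 4 Sham peaks, and Myh7b had 5 TAC and 2 Sham peaks. Mybpc2 had 7 TAC and 6 Sham peaks, Tnnt3 4 TAC and 3 Sham peaks, Myl2 and Tpm2 3 TAC and 2 Sham peaks each. Acta1, Des, Myl7, Myoz1, Tcap and Tnnc1 had no peak, and 0 of the 16 genes with a promoter entry had it covered in either library. Over all dense-window genes with an entry, 2.33% were covered in both, 1.68% in TAC alone and 1.55% in Sham alone. At such shares a list of this size may well show none.

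Of the calcium handling genes 14 lay in dense windows, with 88 TAC and 103 Sham peaks (0.854, 0.635 to 1.15). Sham had more peaks in 5, TAC in 2, and 4 were equal, beside 19.4% with more in Sham and 18.1% with more in TAC over all dense-window genes. Stim1 made up most of the gap. Ryr1, the calcium release channel gene of skeletal muscle, had 20 peaks in each library, Slc8a2, a sodium-calcium exchanger gene, 6 TAC and 8 Sham peaks with its promoter covered in both, Camk2g 6 TAC and 5 Sham peaks, Cacnb1 3 TAC and 5 Sham peaks and Atp2a1 2 TAC and 3 Sham peaks. The promoters of Casq1 and Cacnb3 were covered in TAC alone and that of Cacng6 in Sham alone, of 12 genes with a promoter entry. Over all dense-window genes with an entry the shares were 1.68% in TAC alone and 1.55% in Sham alone. Atp2a2, for the calcium pump of the cardiac sarcoplasmic reticulum, and Hrc, for a calcium-binding protein of its lumen, had no peak.

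Cardiac transcription factor genes in dense windows, 9 of them, held 20 TAC and 18 Sham peaks. Zfpm1, a GATA cofactor gene, had 7 TAC and 8 Sham peaks with its promoter covered in both, Tead2 5 TAC and 3 Sham peaks and Gata5 3 TAC and 4 Sham peaks. Nkx2-5 and Srf had 1 TAC and 0 Sham peaks each, and Mef2d had none. Of 9 genes known to be induced by load, 7 had no peak in either library, beside 44.6% of all dense-window genes, among them Gdf15, Junb, Jund and Acta1. Myh7 and Fosb, with 1 TAC and 2 Sham peaks, were the others. The 7 genes without a peak were 1.20 to 8.24 kb long, and the counts are not adjusted for gene length.

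Energy genes differed among themselves in peak number and in length. Of 24 oxidative phosphorylation genes, 22 had no peak in either library, beside 44.6% of all dense-window genes, and Ndufa7, for a subunit of complex I, had 2 in each. The 12 genes of fatty acid oxidation held 26 peaks in each library, with none in 6 of them, and Acacb, for the acetyl-CoA carboxylase that restrains carnitine palmitoyltransferase, had 12 TAC and 14 Sham peaks, Ppard 6 TAC and 4 Sham peaks and Cpt1c 5 in each. The 11 genes of glucose use held 10 TAC and 11 Sham peaks, with none in 5 of them and 4 TAC and 3 Sham peaks in Pfkl and 1 TAC and 4 Sham peaks in the muscle gene Pfkm. Of 21 housekeeping genes 16 had no peak, beside the same 44.6%, and Polr2a had 2 TAC and 3 Sham peaks.

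Genes of the methylation machinery, 8 of them, held 17 TAC and 20 Sham peaks. Dnmt1, for the maintenance methyltransferase, had 3 TAC and 6 Sham peaks, Tet3 5 TAC and 4 Sham peaks and Dnmt3l, for a cofactor of germ cells, 4 TAC and 3 Sham peaks with its promoter covered in both. Germline genes are often silenced in body cells by methylation of their promoters. Of 19 with a promoter entry, 7 were covered in TAC and 9 in Sham. Covered in both were Tex14, Hsf5, Tdrd9, Mov10l1, Hormad1, Fkbp6 and Tex101, and in Sham alone Tex19.1 and Dpep3. Over all dense-window genes with an entry, 2.33% were covered in both, 1.68% in TAC alone and 1.55% in Sham alone. The 24 germline genes held 53 TAC and 46 Sham peaks, with 10 TAC and 7 Sham in Tex14 and 9 TAC and 10 Sham in Tdrd9. Of 8 imprinted genes with an entry, Peg3, Usp29, Igf2 and Mcts2 were covered in both libraries, beside 2.33% of all dense-window genes with an entry. Peg3 ends at base 6730462 of chromosome 7 and Usp29 begins at base 6730559, so Peg3 and Usp29 may not be separate cases. The 9 imprinted genes held 45 TAC and 34 Sham peaks, most of them in Usp29.

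Genes that mark other cells of the heart were counted in the same way. The 19 endothelial genes held 65 TAC and 82 Sham peaks (0.793, 0.563 to 1.11), with more in TAC in 3, more in Sham in 9 and equal numbers in 5. Over all dense-window genes TAC had more in 18.1% and Sham in 19.4%, and 44.6% had no peak. Eng had 6 TAC and 11 Sham peaks, Cdh5, for the cadherin of endothelial junctions, 2 TAC and 6 Sham peaks, Nos3 3 TAC and 6 Sham peaks, Flt4 5 TAC and 8 Sham peaks, Pecam1 12 TAC and 13 Sham peaks and Vwf 13 TAC and 12 Sham peaks. The 21 immune genes held 28 TAC and 33 Sham peaks (0.848, 0.494 to 1.45), with 9 in each library in Spi1. Of 11 with a promoter entry, Cd79a and Cd37 were covered in Sham alone, beside 1.55% of all dense-window genes with an entry. The 5 smooth muscle genes held 10 TAC and 9 Sham peaks, with 9 TAC and 7 Sham in Notch3, the 4 fibroblast genes 5 in each, and the 6 Polycomb-marked developmental genes 1 TAC and 2 Sham peaks. All these intervals span 1, and the share of cells of each type in the libraries was not tested.

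Hairpins of microRNAs in dense windows were touched by a peak in 19 of 314 cases in TAC and in 29 in Sham, 9 of them in both. A pair with a peak in 1 library, chosen after their values were seen, is shown with both mature strands from RefSeq on GRCm38.p6, the seed (bases 2 to 8) in capitals. The 4 seeds differ from each other.
mmu-miR-200c-3p: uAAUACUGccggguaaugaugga
mmu-miR-200c-5p: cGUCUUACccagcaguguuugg
mmu-miR-142a-3p: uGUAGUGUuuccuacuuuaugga
mmu-miR-142a-5p: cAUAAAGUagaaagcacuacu

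Mir200c, of a family that holds cells in an epithelial state, lies at chr6:124718322-124718390 on the minus strand and was touched by a TAC peak of 999 bp with 57 inferred tags and by no Sham peak. Mir142, known from blood cells, lies at chr11:87756864-87756927 on the plus strand, inside a Sham peak of 1289 bp with 38 inferred tags, and no TAC peak touched it. Its antisense hairpin Mir142b lies under the same Sham peak. At Mir675, within the imprinted H19 gene, and at Mir877 both libraries had a peak, of 630 bp in TAC and 1368 bp in Sham and of 1873 bp in TAC and 1614 bp in Sham. Hairpins in the other autosomal windows were touched in 27 of 605 cases in TAC and 35 in Sham.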

How the data were processed

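Antibody-captured DNA (MeDIP) was sequenced from a TAC library and a Sham library, and an Input library without antibody served the authors' peak calling. The submitters' processing notes name build mm10, HOMER 4.5, Picard and BWA 0.7.4-r385. Each library's peaks came from HOMER in its mode for broad regions, against a shared input with at least 4-fold excess and a Poisson p-value of 1.00e-04, per the file headers. The deposited lists give start and end per peak. The deposited score column holds the same value for every peak and was not used to rank peaks.

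Each list runs in blocks sorted by position, 414 in TAC and 352 in Sham. Read as 1 tag fewer per block down to 8 in the last, the blocks sum to 99.3% of what each header gives as tags in peaks. These inferred tags, a reading that the sources used here do not state, gave the thresholds. Total tags were 14658177 in TAC and 12585289 in Sham. The counting intervals rest on peak numbers, not on tags.

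Gene positions came from RefSeq on GRCm38.p6. The table lists 105 autosomal protein-coding genes before position 3000000, where no peak has its midpoint. They were left out, and with them 3 windows that hold no peak. Promoter entries matched 6317 of the 7742 dense-window genes. Gene lists held 16 functions and families 17 symbol patterns.

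Intervals of shares are exact (Clopper-Pearson), those of TAC to Sham ratios follow from the exact interval of the TAC share, and the quotient of ratios has a Woolf interval. With 1 library per group no test was run. Scripts used Python 3.11.15, numpy 2.4.6, pandas 2.3.3 and scipy 1.17.1 and were tested on simulated lists. Named windows were the 8 with most peaks and, of those with 20 or more, 6 from either end of a ranking by the interval of the TAC share. Named genes were 10 from either end of the same ranking over gene bodies, the 8 with the widest promoter peak per state of coverage, and list genes with 5 or more peaks. Other list genes were named after their values were seen. Some list genes are not reported here. Members and lists were chosen with earlier results of these data known.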

Additional observations from a re-analysis of the deposited data

How the results depend on the processing

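Peak counts in dense windows depended on the tag threshold. The TAC to Sham ratio over all places was 1.07 as reported, 0.984 at the nearly equal depth-scaled threshold, 0.899 with the TAC list reduced to the number of Sham peaks at random, 1.04 among strong peaks and 1.04 without chemosensory receptor windows. It was 1.05 to 1.08 with windows of 16 or 31 genes, of 500 kb or 2 Mb, shifted, or with peaks placed by their start. Inside genes it was 0.899 at the nearly equal threshold and 0.925 among strong peaks. Between genes it was 1.18 and 1.35 at these thresholds and 1.19 without chemosensory windows, an alternative chosen after seeing the data. At the nearly equal threshold the ratio was 1.35 in chemosensory windows and 0.957 in the others, and 21 windows in place of 36 reached a ratio of 1.5.

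The share of peaks in both libraries was 59.6% in TAC and 63.7% in Sham with overlap of at least 50% of the narrower peak, 53.2% in TAC and 57.1% in Sham with 50% of both, and 64.6% in TAC and 65.4% in Sham at the nearly equal threshold. Promoter coverage was 2.05% in both libraries with at least 150 bp of overlap, and 1.45% in TAC and 1.55% in Sham with strong peaks. Of the other 34 alternatives, 25 stayed within the counting interval of the reported value and 4 medians of tag ratios within its quartiles, and 5 counts of windows past 1.5-fold were 36, 34 and 0, with 36 and 0 as reported. Causes were not tested. No paired analysis was possible because each group has 1 library and no result comes from a test. With 1 library per group, no difference between TAC and Sham can be set against the spread between animals.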
